A study of Mus musculus with 32 samples.

Results

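Intestinal adenomas of Pygo1/2 knockout mice were compared with crypts of the same knockout across all genes on the array. The comparison took every array titled as adenomas of ApcMin Pygo1/2 double-knockout (DKO) mice, 5 in all, and every array titled as Pygo1/2 DKO crypt, 3 in all, so that it used 8 of the 32 arrays of the series and no measured value entered the choice. Across the whole series, mouse whole-genome bead arrays profiled crypts and adenomas of Pygo1/2 or Bcl9/B9l knockouts, and adenomas with all of these genes knocked out. Wild-type crypts and ApcMin adenomas with these genes intact were profiled as well. The question asked here is how expression differs between tumour and normal crypt in the Pygo1/2 knockout.

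All 8 arrays came from the C57BL/6J strain at an age of 120 days and from the same array batch. The 3 crypt samples (normal crypts) carried a null Pygo1 allele on both chromosomes, a loxP-flanked Pygo2 on both, and 1 copy of the villin.Cre transgene, and were labelled as intestinal epithelium obtained by EDTA dissociation. The 5 adenoma samples shared all of these alleles, carried ApcMin on 1 chromosome in addition, and were labelled as excised intestinal adenoma. Villin.Cre is driven by a promoter of the intestinal epithelium. By genotype, Pygo2 was thus deleted there and left in stromal and immune cells, whereas Pygo1 was absent from all cells. The DKO lines had been backcrossed to C57BL/6 for several generations, and an RNA sample was typically pooled from several extractions of 1 mouse. The labels do not say that each array is a different mouse, so the p-values measure the spread between these samples. The ApcMin allele, the tissue and the way it was taken differ together between the groups and cannot be told apart.

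In the crypt, Wnt ligands stabilize beta-catenin, which binds TCF factors on target genes and keeps the Lgr5-marked stem cells and the Paneth cells next to them. Loss of Apc function stabilizes beta-catenin without a ligand, and adenomas follow. Pygo proteins are nuclear factors with a PHD finger that binds the tail of histone H3, and they reach beta-catenin through the adaptors Bcl9 and B9l, in a complex that also contains Ldb proteins bound to enhancers.

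Levels are given as log2 of the background-corrected and quantile-normalized intensity of 1 probe per gene, the one with the highest mean where a gene had several, and differences as adenomas minus crypts with their standard error (SE). A difference was called when its adjusted p from the limma fit across all probes was under 0.01. A probe counted as detected in an array when its detection p-value there was under 0.01. Where all arrays of the dimmer group missed this, any fold is given as a lower bound, "at least N-fold", set against the dimmest detected probes. Levels of different genes were read from different probes and were not set against each other.

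The targeted genes were examined first, with the 26 arrays of the batch normalized together. Pygo2 stood at 8.30 ± 0.31 (SD, n = 3) in the DKO crypts, against 9.87 ± 0.19 (SD, n = 3) in wild-type crypts and 9.79 ± 0.15 (SD, n = 3) in wild-type crypts with villin.Cre. The DKO crypts were lower than the wild-type crypts by 1.57 ± 0.19 on the log2 scale (limma, adjusted p = 4.23e-05), with no overlap between the arrays of the 2 groups. In the DKO adenomas Pygo2 stood at 9.14 ± 0.24 (SD, n = 5), against 10.35 ± 0.24 (SD, n = 6) in ApcMin adenomas with intact Pygo, and fell by 1.20 ± 0.14 on the log2 scale (adjusted p = 1.59e-05). The Pygo2 probe was thus detected in every DKO array, at a lower level than in the genotypes that keep the gene. Protein was not measured, and how complete the deletion was in the epithelium was not tested. Pygo1 was detected in 1 of 3 wild-type crypts, 1 of 3 with villin.Cre and 0 arrays of the other groups examined, so its probe could not check the labels.

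Between the 2 DKO groups themselves, Pygo2 was at 8.37, 8.61 and 8.00 in crypts 1 to 3 and at 9.56, 8.97, 9.06, 9.08 and 9.07 in adenomas 1 to 5. All 5 adenomas lay above all 3 crypts, by 0.82 ± 0.20 (adjusted p = 0.00462, and 0.0335 without crypt 3). Of the other members of the beta-catenin complex, Bcl9 rose by 1.15 ± 0.23 (adjusted p = 0.00136) and Ldb1 by 1.17 ± 0.20 (adjusted p = 0.000445). Bcl9l, as the array names B9l, differed by 0.40 ± 0.19 and Ctnnb1 (beta-catenin) by 0.14 ± 0.20, and neither passed the threshold.

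The change from crypt to adenoma was broad. Of 18698 probes detected in at least 1 array, 7870 (42.1%) were called, 4060 higher (21.7%) and 3810 lower (20.4%) in the adenomas, so that 51.6% of calls were rises. When the arrays were scaled to a common median in place of quantile normalization, 4738 were higher and 2751 lower, 63.3% rises, and the median difference of all probes moved from -0.05 to 0.17. Taken as 1 probe for each of 10639 named genes, 4719 (44.4%) were called, 2644 higher (24.9%) and 2075 lower (19.5%), beside a median difference of 0.03. The counts of every gene list below are to be read beside these shares. In 57.3% of these genes the values of the 3 crypts and the 5 adenomas did not overlap, as in 54.6% of all probes. Rises of 4 or more log2 units were counted in 132 genes and falls of that size in 25. Among the genes called higher, 1117 were detected in no crypt array, and among those called lower 153 were detected in no adenoma array.

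The arrays fell into their labelled groups. The first principal component carried 79.4% of the variance and the second 5.96%. Correlations over probes were 0.981 for each pair of crypts, 0.959 to 0.976 among adenomas and 0.778 to 0.849 between the groups. Of the 45281 probes of the array, 12913 to 13571 were detected in a crypt and 15451 to 16319 in an adenoma. The number of arrays limits the precision, and the median SD was 0.20 among the crypts and 0.30 among the adenomas. Genes of the sex chromosomes also separated the groups. Xist, the RNA that coats the inactive X chromosome, was detected in no crypt and in all adenomas (at least 10.8-fold higher), and the Y-linked genes Eif2s3y and Kdm5d were detected in all crypts and in no adenoma (at least 22.4-fold and 4.84-fold lower). The crypts therefore carried a male and the adenomas a female pattern, and differences that come with it cannot be told apart from those between tumour and crypt.

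The tissue labels were checked against marker lists. The 10 epithelial markers were detected in every array, and their summed linear intensity ranged from 63346 to 70579 in the crypts and from 47516 to 60001 in the adenomas. The crypt arrays held the Paneth cell product Lyz1, lysozyme, at 14.51 ± 0.37 (SD, n = 3), and also products of differentiated villus enterocytes, with sucrase-isomaltase (Sis) at 14.51 ± 0.05 and Krt20 at 14.10 ± 0.10. The stem cell marker Lgr5 was detected in no crypt array. Markers of fibroblasts and matrix summed to between 494 and 1036 in the crypts, with 0 to 4 of 19 detected, and to between 22561 and 34897 in the adenomas, with 18 or 19 detected. The excised tumours thus held stromal RNA that the dissociated crypts nearly lacked, and its part in the differences described here was not tested. In such bulk samples fewer cells of a type and less RNA per cell cannot be told apart.

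**Figure D1:**
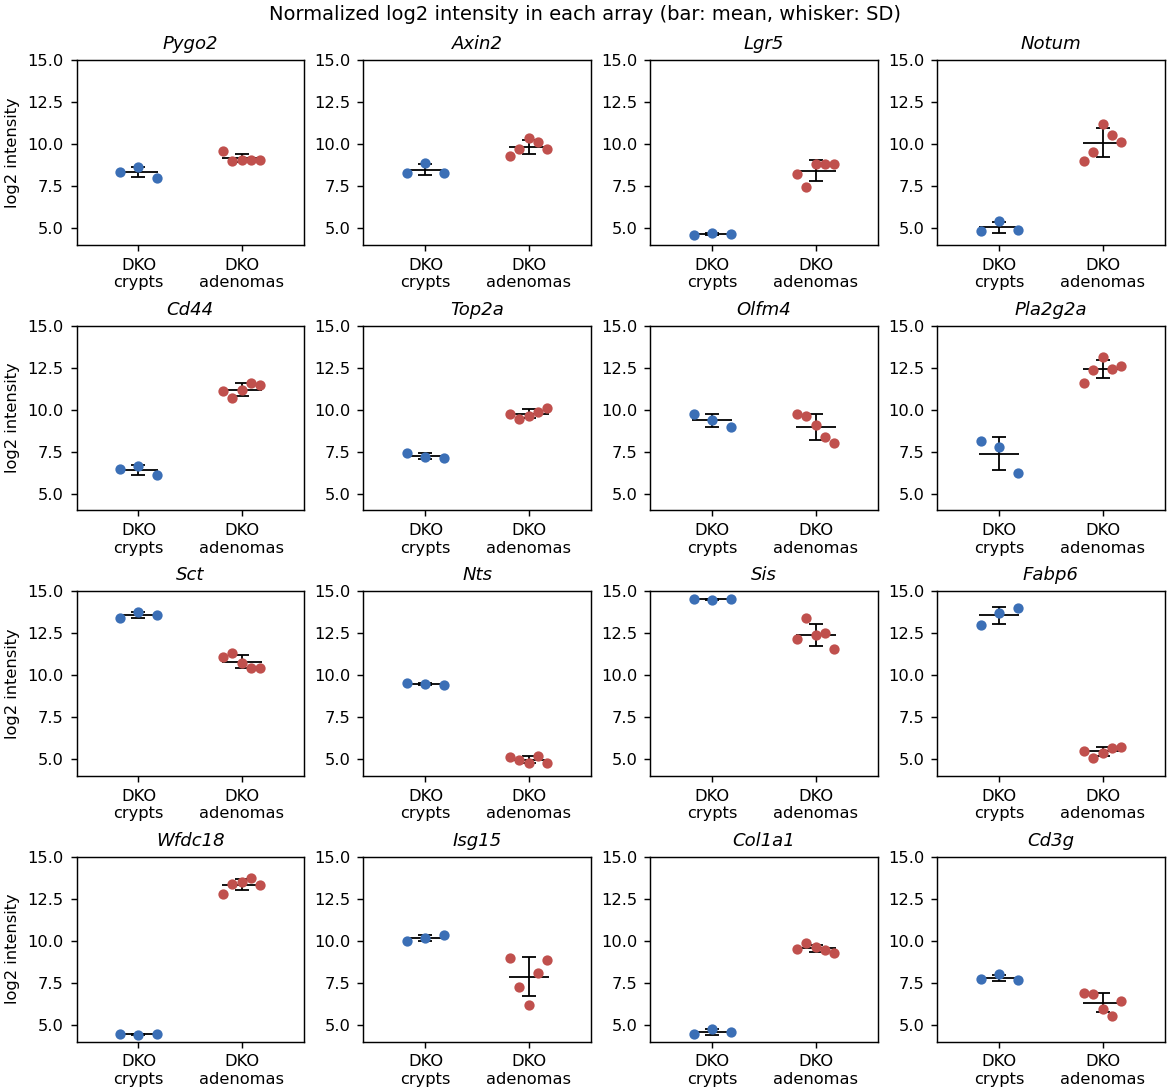
Normalized log2 intensity of 16 genes in each of the 3 DKO crypts (blue) and 5 DKO adenomas (red), with the mean as a bar and the SD as whiskers. Lgr5, Notum, Wfdc18 and Col1a1 sat near background in every crypt and far above it in every adenoma, Nts and Fabp6 showed the reverse, and the 2 groups overlapped for Olfm4.

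Genes that respond to Wnt signalling were higher in the adenomas. Of 19 Wnt target genes tested, 16 rose and 0 fell, beside 24.9% of all named genes higher, and the median of the list was 3.22. The 3 members with the largest rises were Dkk3, Nkd1 and Notum, of which Nkd1 and Notum are inhibitors of the pathway. Notum, which removes the lipid from Wnt ligands, was at 4.84, 5.44 and 4.90 in the crypts and at 8.97, 9.53, 11.18, 10.54 and 10.13 in the adenomas. No crypt reached any adenoma, and adenoma 3 was highest. The difference was 5.01 ± 0.41 (adjusted p = 2.49e-06), at least 16.4-fold. Nkd1, an intracellular inhibitor acting on Dishevelled, read 4.64, 4.75 and 4.70 in the crypts and 8.97, 9.87, 11.23, 10.57 and 10.22 in the adenomas, in the same order of adenomas as Notum. It rose by 5.47 ± 0.39 (adjusted p = 9.2e-07), at least 17.5-fold. Dkk3, of the Dickkopf family, rose by 5.95 ± 0.36 (adjusted p = 2.93e-07), at least 25.9-fold, and Wif1, a secreted protein that binds Wnt ligands, by 3.54 ± 0.38 (detected in 2 of 3 crypts).

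Axin2, the scaffold of the beta-catenin destruction complex and the most general Wnt target, was at 8.28, 8.90 and 8.28 in the crypts and at 9.29, 9.70, 10.38, 10.11 and 9.72 in the adenomas. It was well detected in both groups, and its rise of 1.35 ± 0.26 (adjusted p = 0.000929) was 2.55-fold. Cd44, a hyaluronan receptor of crypt base cells, was at 6.48, 6.65 and 6.11 against 11.09, 10.67, 11.15, 11.59 and 11.48. The groups stood 4.78 ± 0.23 apart (adjusted p = 7.26e-08), 27.5-fold, and 7 of the 8 Cd44 probes were called higher. The transcription factors Sox9, Sox4 and Prox1 rose by 3.41 ± 0.19, 3.58 ± 0.24 and 3.91 ± 0.33, and cyclin D1 (Ccnd1) by 2.82 ± 0.21 (adjusted p = 1.12e-06). Myc rose by 0.74 ± 0.16 (adjusted p = 0.00213), but its probe was detected in 2 adenomas only. Rnf43, a ubiquitin ligase that clears Wnt receptors, differed by 0.30 ± 0.24, Apcdd1, a membrane inhibitor of Wnt reception, by 0.96 ± 0.34 and the transcription factor Sp5 by 0.36 ± 0.29, none past the threshold. Sp5 was bright in both groups, at 10.74, 10.98 and 11.08 in the crypts and 10.52, 11.34, 12.04, 11.48 and 11.10 in the adenomas, and the ranges overlapped.

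The stem cell genes followed. Of 16 tested, 12 rose and 0 fell, with a median of 1.97. Lgr5, a receptor for R-spondins, was at 4.62, 4.73 and 4.68 in the crypts and at 8.25, 7.44, 8.81, 8.84 and 8.79 in the adenomas. Adenoma 2 was the lowest of the 5 and still stood far above the crypts, for a difference of 3.75 ± 0.30 (adjusted p = 2.05e-06), at least 5.23-fold. Tnfrsf19 (Troy), a stem cell receptor that binds Lgr5, was at 4.48, 4.46 and 4.47 against 7.15, 7.40, 8.23, 8.20 and 7.49. It rose by 3.22 ± 0.26 (adjusted p = 2.05e-06), at least 3.15-fold. Ascl2, the transcription factor of the Lgr5 cells, rose by 1.10 ± 0.27 (adjusted p = 0.00509, and 0.0323 without crypt 3) and Igfbp4 by 4.74 ± 0.19. Olfm4, the most abundant secreted product of these stem cells, did not follow them, with 9.75, 9.38 and 8.99 in the crypts and 9.74, 9.65, 9.11, 8.37 and 8.00 in the adenomas. The ranges overlapped, and the difference of -0.39 ± 0.38 (adjusted p = 0.396) did not pass the threshold. Lrig1, a receptor antagonist of slow-cycling cells, rose by 2.17 ± 0.24.

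The promoters of Sp5 and Tnfrsf19 are shown because they were the ones, among 22 promoters found for 15 of the 24 listed Wnt target genes, in which the 250 bases before the start held a core of the TCF motif. Capitals mark CTTTGAT or CTTTGTT read on either strand, and both sequences are given 5′ to 3′ on the strand of the gene, from RefSeq on build GRCm38.p6.
Sp5, chr2:70474673-70474922, plus strand: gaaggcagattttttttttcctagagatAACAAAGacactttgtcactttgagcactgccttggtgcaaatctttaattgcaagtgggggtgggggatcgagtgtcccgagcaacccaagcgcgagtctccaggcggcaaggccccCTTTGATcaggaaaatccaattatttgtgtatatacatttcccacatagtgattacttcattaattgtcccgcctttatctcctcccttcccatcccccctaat
Tnfrsf19, chr14:61037988-61038237, minus strand: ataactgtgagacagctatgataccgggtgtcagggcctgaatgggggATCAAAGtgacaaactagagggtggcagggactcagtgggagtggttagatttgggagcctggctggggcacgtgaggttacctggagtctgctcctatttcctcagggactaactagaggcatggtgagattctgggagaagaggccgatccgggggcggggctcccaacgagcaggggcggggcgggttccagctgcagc
In Sp5, CTTTGAT lay 104 bases before the start on the strand shown and CTTTGTT 222 bases before it on the opposite strand. In Tnfrsf19, CTTTGAT lay 202 bases before the start on the opposite strand. The same letters were present in 8.06% of all 32851 promoters of this length (CTTTGAT in 3.21% and CTTTGTT in 5.03%) and in 9.09% of the 22, and of the pair shown Tnfrsf19 rose while Sp5 was not called. A match of letters is a description and not a binding site.

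Genes of cell division were higher. Of 16 proliferation genes, 15 rose and 0 fell, beside 24.9% of all named genes higher, with a median of 1.79. Top2a, the topoisomerase of dividing cells, was at 7.43, 7.16 and 7.14 in the crypts and at 9.73, 9.43, 9.65, 9.86 and 10.12 in the adenomas. The groups were well separated, by 2.52 ± 0.19 (adjusted p = 1.31e-06), 5.72-fold. The replicative helicase subunits Mcm2 to Mcm7 all rose, by between 1.40 ± 0.24 for Mcm2 and 2.60 ± 0.20 for Mcm5, as did the mitotic kinases Plk1 (2.25 ± 0.24) and Aurka (1.47 ± 0.19). Pcna, the sliding clamp of DNA replication, differed by 0.26 ± 0.35 with overlapping ranges. Of 15 ribosome biogenesis genes, 13 rose and 0 fell, with a median of 1.73. The nucleolar proteins nucleolin (Ncl) and nucleophosmin (Npm1) rose by 1.78 ± 0.22 and 1.73 ± 0.16, and Gar1, of the pseudouridylation complex, by 2.70 ± 0.23.

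The signals that direct cell fate in the crypt changed in part. Of 8 Notch and secretory fate genes, 4 rose and 1 fell, beside 24.9% of all named genes higher and 19.5% lower. The Notch targets Hes1 and Hey1 rose by 1.57 ± 0.22 and 3.84 ± 0.31, the receptor Notch1 by 1.52 ± 0.32, and the ligand Dll1 fell by 1.02 ± 0.17. Of 11 BMP and hedgehog genes, 4 rose and 1 fell (36.4% and 9.09%), not far from those shares. The ligands Bmp4 and Bmp7 rose by 4.13 ± 0.29 and 3.00 ± 0.27 and the BMP antagonist Grem1 by 2.81 ± 0.18 (at least 2.94-fold), while Id2 (-0.33 ± 0.40) and Id1 (0.52 ± 0.18), both targets of BMP signalling, were not called. Bmp4 and Grem1 are genes of the mesenchyme in the normal gut. Indian hedgehog (Ihh), made by enterocytes, fell by 0.96 ± 0.22 (adjusted p = 0.00359), and its receptor Ptch1, a target of the pathway, rose by 1.33 ± 0.16. Among 7 genes of the EGF receptor system, 2 rose and 1 fell (28.6% and 14.3%), near the shares of all named genes. The ligand betacellulin (Btc) rose by 1.91 ± 0.23 and the receptor Erbb2 fell by 0.87 ± 0.19.

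**Figure D2:**
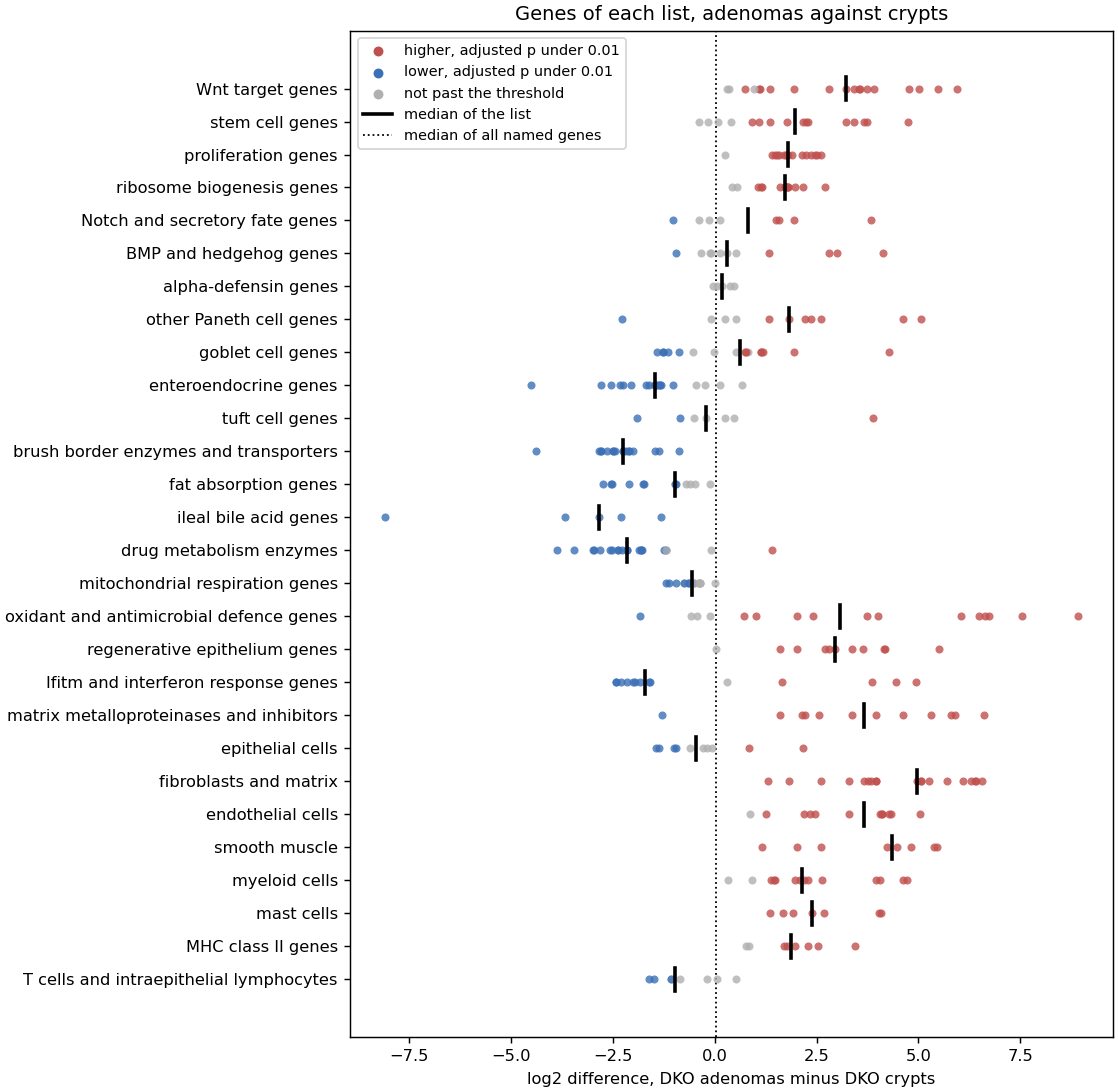
Log2 difference (adenomas minus crypts) of every tested gene in 28 lists, red where called higher, blue where called lower and grey where not called, with the list median as a black bar and the median of all named genes as a dotted line. All 17 brush border genes lie to the left of 0 in blue, all 19 fibroblast genes to the right in red, and the 5 alpha-defensin genes cluster in grey near 0.

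Paneth cell genes moved both ways. The 5 alpha-defensin genes of the list that were tested, which encode the microbicidal peptides of Paneth cells, gave 0 calls, with a median of 0.17 and a range of -0.04 to 0.47. Defa20 was at 14.66, 14.77 and 14.06 in the crypts and 14.66, 14.68, 14.79, 14.63 and 14.59 in the adenomas. It was among the brightest probes of every array, where a rise would show little, and the same held for Lyz1 (lysozyme). Defa31, an alpha-defensin outside the list, fell by 5.65 ± 0.67 (adjusted p = 3.46e-05), from 11.03, 12.30 and 10.21 in the crypts to 4.46, 6.26, 7.50, 4.55 and 4.88 in the adenomas, 2 of which detected it. No wild-type crypt and no Bcl9/B9l DKO crypt detected Defa31, so its level was high in the Pygo1/2 DKO crypts alone of these. Alpha-defensin genes are near-identical copies whose probes can cross-hybridize. Of 11 other Paneth cell genes, 7 rose and 1 fell. Pla2g2a, a secreted phospholipase A2, was at 8.11, 7.76 and 6.25 in the crypts and at 11.61, 12.38, 13.13, 12.43 and 12.61 in the adenomas. It rose by 5.06 ± 0.41 (adjusted p = 2.25e-06), 33.3-fold. Ang4, an angiogenin with bactericidal action, was at 11.16, 10.91 and 9.43 against 12.48, 12.62, 13.52, 11.21 and 11.77. Adenoma 4 lay only just above crypt 1, and the mean rose by 1.82 ± 0.50 (adjusted p = 0.00881, and 0.0537 without crypt 3). Habp2 and Nupr1 rose by 4.62 ± 0.31 and 2.37 ± 0.31. The Wnt-responsive protease Mmp7 (matrilysin), which activates alpha-defensins in the mouse, rose by 2.21 ± 0.38 (adjusted p = 0.000509). Lyz1 differed by 0.24 ± 0.19, and Mptx1, a mucosal pentraxin, fell by 2.29 ± 0.36.

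Goblet cell genes moved both ways, with 7 of 16 higher and 5 lower, beside 24.9% and 19.5% of all named genes. Spdef, the transcription factor of goblet and Paneth cell maturation, rose by 1.96 ± 0.20 (adjusted p = 1.07e-05) and Retnlb, a resistin-like peptide of goblet cells, by 4.27 ± 0.50. Retnlb, detected in 1 of 3 crypts, stood at 4.95, 6.70 and 4.73 in the crypts and at 9.95, 9.65, 10.70, 8.47 and 9.88 in the adenomas, without overlap. The mucin Muc2 (0.52 ± 0.30) and the lectin-like Zg16 (-0.02 ± 0.15) were not called, whereas Tff3, Clca1 and Guca2a, the guanylin precursor, fell by 0.87 ± 0.18, 1.26 ± 0.26 and 1.42 ± 0.20. Of 7 tuft cell genes, 1 rose and 2 fell (14.3% and 28.6%), not far from the shares of all named genes. The actin-binding protein advillin (Avil) rose by 3.89 ± 0.31, the leukotriene synthase Ltc4s fell by 1.90 ± 0.26, and the tuft cell marker Dclk1 differed by 0.25 ± 0.36.

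Enteroendocrine genes were lower. Of 20 tested, 16 fell and 0 rose, beside 19.5% of all named genes lower, with a median of -1.46. Secretin (Sct) was at 13.42, 13.74 and 13.60 in the crypts and at 11.09, 11.33, 10.72, 10.42 and 10.45 in the adenomas. It fell by 2.78 ± 0.23 (adjusted p = 2.73e-06), 6.89-fold. Neurotensin (Nts), the hormone of ileal N cells, was at 9.53, 9.48 and 9.40 against 5.16, 4.94, 4.75, 5.22 and 4.76. No adenoma array detected it, and it fell at least 16.4-fold (adjusted p = 3.13e-08). The hormones glucagon (Gcg, the source of GLP-1), Cck, Gip, Sst and Pyy fell by 2.54 ± 0.41, 2.32 ± 0.27, 2.24 ± 0.26, 2.06 ± 0.41 and 1.68 ± 0.27, and the granule protein chromogranin A (Chga) by 1.46 ± 0.24. Neurog3, the factor that starts the endocrine lineage, was not among them, at 7.27, 5.81 and 6.24 against 7.33, 6.79, 6.49, 6.30 and 6.00, a difference of 0.14 ± 0.35.

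Genes of absorptive enterocytes fell together. All 17 tested brush border enzymes and transporters were lower, with a median of -2.26. Sis was at 14.52, 14.46 and 14.55 in the crypts and at 12.17, 13.38, 12.42, 12.48 and 11.56 in the adenomas. Adenoma 2 kept the most Sis, and the mean fell by 2.11 ± 0.32 (adjusted p = 0.0002). Its probe was among the brightest of the crypt arrays, and no fold is given. Meprin alpha (Mep1a), a brush border protease, was at 10.69, 10.49 and 11.39 against 6.39, 8.05, 5.68, 6.30 and 5.92, 21-fold lower, again with adenoma 2 highest. Lactase (Lct), the glucose transporter Slc5a1 and the peptide transporter Slc15a1 fell by 2.78 ± 0.52, 2.50 ± 0.37 and 2.64 ± 0.36. Of 13 fat absorption genes, 8 fell and 0 rose, with a median of -0.98. Apoc3 and Npc1l1, the cholesterol transporter, fell by 2.52 ± 0.38 and 2.75 ± 0.33, and Mttp, which loads fat onto lipoproteins, by 2.11 ± 0.31. Apoa1, at 14.53 to 14.66 in the crypts and 14.43 to 14.58 in the adenomas, was not called.

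The genes that recover bile acids in the ileum were all lower, 5 of 5, with a median of -2.83. Fabp6, the ileal bile acid binding protein, was at 12.98, 13.70 and 14.00 in the crypts and at 5.51, 5.06, 5.37, 5.67 and 5.74 in the adenomas. It showed the largest fall of all named genes, 8.09 ± 0.25 on the log2 scale (adjusted p = 7.45e-09), 272-fold, and was detected in 3 of 5 adenomas. Fgf15, the hormone that enterocytes release in response to bile acids, was detected in no adenoma and was at least 4.93-fold lower. The transporter subunits Slc51a and Slc51b fell by 2.31 ± 0.28 and 3.67 ± 0.34, and the bile acid receptor FXR (Nr1h4) by 1.31 ± 0.29. Fabp6 and Fgf15 mark the ileum, and the labels do not give the segment of any sample. Among 9 intestinal position factors, 2 fell and 0 rose, a share near the 19.5% of all named genes that were lower. The duodenal factor Pdx1 fell by 1.16 ± 0.21 (adjusted p = 0.000609, and 0.112 when all 26 arrays of the batch shared 1 fit) and Osr2 by 3.08 ± 0.44, while Gata4, a factor of the proximal small intestine, differed by -0.80 ± 0.24 and Cdx2, found along the whole intestine, by -0.30 ± 0.23, both not called. The part of position in the falls was not tested.

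Of 21 enzymes of drug metabolism, 18 fell and 1 rose, with a median of -2.16. Cyp3a11, the main drug-oxidizing P450 of mouse gut and liver, was at 13.17, 12.77 and 12.53 in the crypts and at 9.00, 11.63, 9.94, 7.91 and 8.35 in the adenomas. The adenomas spread widely, with adenoma 2 nearest the crypts, and the fall was 3.46 ± 0.66 (adjusted p = 0.00101). Cyp2b10 fell by 3.88 ± 0.48 and Ugt1a1, the bilirubin-conjugating enzyme, by 2.98 ± 0.40, and Gstm5 alone rose, by 1.40 ± 0.22. Energy genes changed less. Of 17 mitochondrial respiration genes 7 fell (41.2%, beside 19.5% of all named genes) and 0 rose, with a median of -0.55. The largest fall was 1.20 ± 0.26 for the cytochrome oxidase subunit Cox7a2. Of 13 glycolysis genes, 5 rose and 1 fell (38.5% and 7.69%), beside 24.9% and 19.5% of all named genes. The glucose transporter Slc2a1 (Glut1) rose by 2.84 ± 0.23 (adjusted p = 2.4e-06) while the enzymes Gapdh (-0.37 ± 0.16) and Ldha (-0.23 ± 0.17) were not called. Of 11 cholesterol synthesis genes, 5 rose and 1 fell (45.5% and 9.09%), beside the same shares, and Mvd rose by the most (1.51 ± 0.25).

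Genes of epithelial defence held the largest rises. Of 16 oxidant and antimicrobial defence genes, 12 rose and 1 fell, with a median of 3.07. Wfdc18, a small secreted protein with a whey acidic protein domain, was at 4.43, 4.41 and 4.44 in the crypts and at 12.79, 13.37, 13.49, 13.73 and 13.33 in the adenomas. This was the largest rise of all named genes, at least 158-fold (adjusted p = 1.23e-09). The protease inhibitor Serpina3n was at 4.41, 4.46 and 4.44 against 10.96, 11.76, 13.11, 11.62 and 12.40, at least 61-fold higher, and the siderophore-binding Lcn2 at 4.46, 4.46 and 4.43 against 9.95, 10.36, 11.71, 9.92 and 10.47, at least 21.8-fold. Both were highest in adenoma 3. The secreted BPI-fold proteins Bpifb1 and Bpifb5 rose at least 36.3-fold and 35.6-fold, and lactoferrin (Ltf) rose by 3.74 ± 0.45. Of the Noxo1-dependent oxidase, Noxo1 rose by 0.73 ± 0.18 (adjusted p = 0.00485) and Noxa1 by 2.01 ± 0.26, and the dual oxidase maturation factor Duoxa2 rose by 2.40 ± 0.29. The lectin Reg3a was the exception in the list with a fall of 1.84 ± 0.34, and its relative Reg3g, at 9.37 to 11.13 in the adenomas and 10.09 to 12.13 in the crypts, was not called.

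Of 11 genes that mark regenerating epithelium, 10 rose and 0 fell, with a median of 2.95. Anxa1, Anxa8 and the interleukin 1 receptor antagonist Il1rn were detected in no crypt and rose at least 3.44-fold, 3.99-fold and 7.35-fold. Ccn2 (connective tissue growth factor), a YAP target that stromal cells express too, was at 4.49, 5.76 and 4.81 against 10.98, 10.67, 11.68, 9.32 and 9.92, at least 22.3-fold. Ankrd1, another YAP target, was at 5.31, 4.76 and 4.95 against 4.71, 4.82, 5.55, 5.15 and 4.92, which overlapped, and was not called (0.02 ± 0.22).

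Interferon-inducible genes split. The membrane proteins Ifitm1, Ifitm2 and Ifitm3, near-identical restriction factors that Wnt signalling also induces, rose by 4.93 ± 0.27, 3.87 ± 0.23 and 4.46 ± 0.20, and Gbp2 by 1.65 ± 0.20, whereas 9 of the 14 genes of the list fell and its median was -1.72. Isg15, a ubiquitin-like modifier, was at 10.01, 10.14 and 10.33 in the crypts and at 8.95, 7.24, 6.17, 8.05 and 8.86 in the adenomas. All adenomas lay lower, adenoma 3 the lowest, and the fall of 2.31 ± 0.53 had an adjusted p of 0.00318, and of 0.0152 without crypt 3. The antiviral genes Oasl2, Irf7, Ifit3, Usp18 and Rsad2 fell by 1.95 to 2.42, and the immunoproteasome subunits Psmb8 and Psmb9 and the peptide transporter Tap1, which serve antigen presentation by MHC class I, by 1.83 ± 0.27, 1.61 ± 0.31 and 1.59 ± 0.37.

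**Figure D3:**
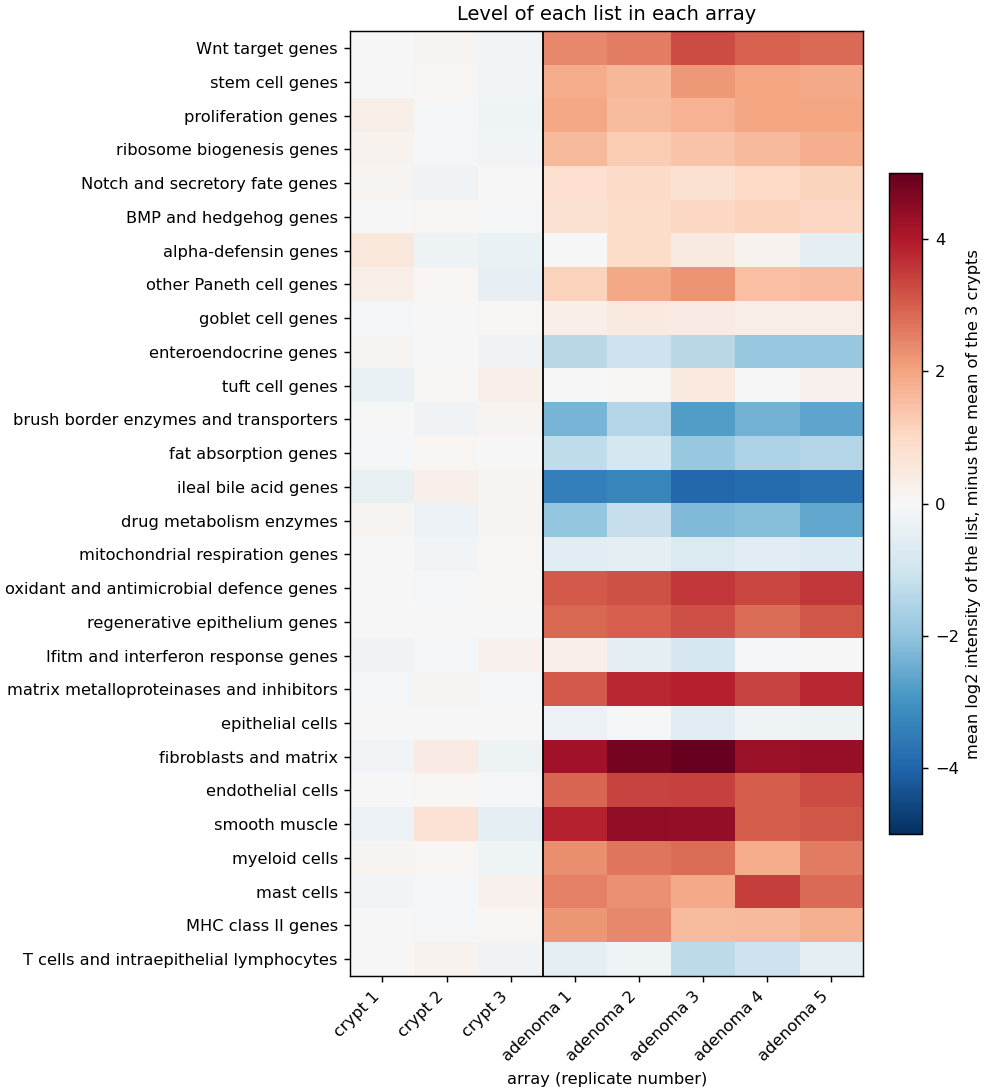
Mean log2 intensity of each of 28 lists in each of the 8 arrays, less the mean of the 3 crypts, from blue (lower) to red (higher). The 5 adenomas share the same colours in most rows, adenoma 2 is the palest in the brush border and drug metabolism rows, and crypt 2 is tinted red in the fibroblast and smooth muscle rows.

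Genes of the stroma and its remodelling were mostly higher. Of 12 matrix metalloproteinases and their inhibitors, 11 rose and 1 fell, with a median of 3.66. The stromelysin Mmp10 was at 5.11, 5.60 and 4.44 in the crypts and at 11.31, 11.51, 11.99, 11.17 and 12.35 in the adenomas, at least 49.4-fold higher, and the collagenase Mmp13 rose at least 27.3-fold and the inhibitor Timp1 at least 14.4-fold. Of 11 Igf genes, 7 rose and 2 fell (63.6% and 18.2%), beside 24.9% and 19.5% of all named genes. The binding proteins Igfbp5 and Igfbp7 rose by 6.81 ± 0.29 and 7.02 ± 0.41 and the growth factor Igf1 at least 2.78-fold, while Igf2 fell by 1.35 ± 0.31 and its mRNA-binding protein Igf2bp3 was at least 5.91-fold lower.

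All 19 fibroblast and matrix genes rose, with a median of 4.96. Col1a1 was at 4.44, 4.77 and 4.54 in the crypts and at 9.53, 9.86, 9.64, 9.43 and 9.27 in the adenomas. It was detected in no crypt and rose at least 11.4-fold (adjusted p = 2.05e-08). All 8 smooth muscle genes rose, and the actin Acta2 was at 6.71, 9.52 and 6.46 in the crypts against 13.06, 13.38, 13.51, 12.31 and 12.44. Crypt 2 was the highest crypt for Acta2, and likewise for the proteoglycan Dcn (7.84 against 5.64 and 4.83) and for Sparc (5.90 against 4.54 and 4.44). The summed smooth muscle intensity ran from 419 to 1528 in the crypts and from 9531 to 25103 in the adenomas. Of 12 endothelial genes 11 rose, with the fenestral protein Plvap at least 17.8-fold higher, and their sum was 399 to 438 in the crypts and 4025 to 5739 in the adenomas. The globin Hba-a1, of red blood cells, was at 7.62 ± 1.22 in the crypts and 13.73 ± 0.37 in the adenomas (SD).

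Immune markers did not move as one. Of 14 myeloid genes, 12 rose and 0 fell, and their sum was 702 to 855 in the crypts and 2965 to 6608 in the adenomas. The complement component C1qb, made by macrophages, rose at least 10.8-fold, and the neutrophil protein S100a8, at 7.20, 9.03, 9.93, 6.68 and 8.95 in the adenomas, rose at least 4.99-fold. All 7 mast cell genes rose. The mast cell carboxypeptidase Cpa3 was at 4.37, 4.41 and 4.64 in the crypts and at 8.46, 8.11, 7.30, 9.76 and 9.11 in the adenomas, highest in adenoma 4, as was the protease Mcpt1 (10.84). Of 8 MHC class II genes, 6 rose, Cd74 by 3.45 ± 0.25. T cell and intraepithelial lymphocyte genes went the other way, with 0 of 8 higher and 3 lower, beside 24.9% and 19.5% of all named genes. The T cell receptor subunit gene Cd3g was at 7.70, 8.00 and 7.68 in the crypts and at 6.89, 6.82, 5.95, 5.52 and 6.40 in the adenomas, and fell by 1.48 ± 0.30 (adjusted p = 0.00133). The lymphocyte chemokine Ccl5 fell by 1.60 ± 0.36. The sum of the list, 3997 to 4349 in the crypts, overlapped with 3077 to 5234 in the adenomas. Of 18 chemokines and cytokines, 7 rose and 4 fell (38.9% and 22.2%), beside the same shares of all named genes. Among those detected in no crypt were Il11 (at least 5.54-fold), Cxcl1 (at least 3.78-fold) and Il1b (at least 2.89-fold), all 3 highest in adenoma 5. Ccl25, the chemokine that draws lymphocytes to the small intestine, and the epithelial cytokine Il18 fell by 1.74 ± 0.32 and 1.85 ± 0.22.

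Of 18 adhesion and junction genes, 4 were higher and 4 lower, shares near the 24.9% and 19.5% of all named genes. Claudin 2 (Cldn2), the pore-forming claudin of crypt cells, rose by 2.80 ± 0.17 (adjusted p = 2.64e-07), claudin 15 (Cldn15), which forms the sodium pore of the villus, fell by 1.67 ± 0.23, and E-cadherin (Cdh1) differed by -0.06 ± 0.20. Of 16 semaphorin, plexin and ephrin genes, 4 were higher and 3 lower, again near those shares. The secreted Sema3f was at least 17.2-fold higher and its relative Sema6a fell by 1.71 ± 0.29.

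Of the named genes with the largest changes, some belonged to these lists and others to none of them. The 15 largest rises were Wfdc18, Serpina3n, Igfbp7, Gkn3, Igfbp5, Bpifb5, Bpifb1, Mmp10, Plat, Sparc, Lrg1, Dcn, Col4a1, Aqp5 and Nptx2. Gkn3, a gastrokine otherwise made by the stomach, was at 6.73, 6.93 and 6.18 in the crypts and at 12.86, 13.15, 14.07, 14.00 and 13.98 in the adenomas, 128-fold higher. The water channel Aqp5 rose at least 39.1-fold and the neuronal pentraxin Nptx2 at least 30.3-fold. The 15 largest falls were Fabp6, Defa31, Eif2s3y, Akp3, Fam151a, Enpp7, Slc34a2, Serpina1d, Slc5a8, Tmigd1, Nts, Naaladl1, Cyp2b23, Mep1a and Cyp2c55. Enpp7, the alkaline sphingomyelinase of the brush border, fell by 4.71 ± 0.26, the phosphate transporter Slc34a2 by 4.66 ± 0.36 and the monocarboxylate transporter Slc5a8 by 4.55 ± 0.44. The alkaline phosphatase Akp3, at 10.85, 12.17 and 11.47 in the crypts, was at 5.66, 7.23, 5.39, 6.06 and 6.26 in the adenomas, 41.6-fold lower.

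Among themselves the adenomas were alike, but not in every group. Between 268 (adenoma 4) and 585 (adenoma 2) probes lay more than 1 log2 unit from the median of the 5. Adenoma 3 was highest for Notum, Nkd1, Dkk3, Axin2, Sp5 and Prox1 and lowest for Isg15, Irf7 and Osr2. Adenoma 2 was highest for Sis, Mep1a and Cyp3a11 and lowest for Lgr5 and Ascl2.

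To see which of these changes depended on the Pygo genotype, the change from DKO crypts to DKO adenomas was set against that from wild-type crypts (n = 3) to ApcMin adenomas with intact Pygo (n = 6 of the same batch). By genotype, neither the wild-type crypts nor the ApcMin adenomas carried villin.Cre, and both were also taken at 120 days. The 2 changes share no sample, and their 17 arrays were normalized together, so values differ slightly from those above. Across 19445 probes they correlated at r = 0.91 with a slope of 1.01, as a description over probes that share the array design and both ways of taking tissue. Both changes were called in 5967 probes, 67.3% of the DKO calls and 84% of the ApcMin calls, and 5963 of these had the same direction. The difference between the changes was called for 12 probes (0.0617%), 3 with a more positive and 9 with a more negative change in the DKO, beside 2877 at an unadjusted p under 0.05. No tested Wnt target was among the 12. Notum rose by 5.13 with Pygo and by 5.03 without it, Nkd1 by 5.54 and 5.48, and Cd44 by 3.66 and 4.81.

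The ion transporter Slc12a2, a gene of crypt base stem cells, rose more in the DKO on 1 of its 2 probes. It was at 8.87, 8.98 and 8.66 in DKO crypts and 11.56, 11.27, 11.69, 11.36 and 11.55 in DKO adenomas, but at 9.90, 9.75 and 10.07 in wild-type crypts and between 10.27 and 11.32 in the 6 ApcMin adenomas. Its changes of 2.66 and 0.85 differed by 1.81 ± 0.28 (limma, adjusted p = 0.00856), and the DKO crypts were the lowest of the 4 groups. The brighter Slc12a2 probe missed the threshold for this difference (adjusted p = 0.0113). Bora, an activator of the kinase Aurora A, likewise rose by 1.45 in the DKO and differed by -0.13 in the ApcMin pair (difference 1.58 ± 0.24, adjusted p = 0.00812). Defa31, another alpha-defensin, was at 11.04, 12.30 and 10.21 in the DKO crypts and was detected in 0 of the wild-type crypts and ApcMin adenomas, where it read at most 4.73 (difference -5.77 ± 0.74, adjusted p = 0.00129, with both probes called). AY761185, a gene of chromosome 8 with no descriptive name in the annotation, was likewise detected in all 3 DKO crypts and in 0 of the wild-type crypts and ApcMin adenomas (difference -4.78 ± 0.42, adjusted p = 1.32e-05). A further 4 of the 12 probes had no gene name. The nucleic acid sensor Zbp1, on 1 of its 2 probes, fell by 1.75 in the DKO and rose by 1.89 in the ApcMin pair. Mdm2, the ubiquitin ligase of p53, fell by 0.66 and rose by 0.61, and Gemin2, of the SMN complex, on 1 of its 2 probes fell by 1.29 and rose by 0.92. For all 3, every DKO crypt stood above every wild-type crypt. With the wild-type crypts that carry villin.Cre as the control, the Gemin2 difference was -0.42 (adjusted p = 0.643) and that of Zbp1 -2.22 (adjusted p = 0.0476), those of Slc12a2 and Bora were 1.77 and 1.54 and missed the threshold (adjusted p = 0.0121 and 0.0198), and Mdm2 and Defa31 stayed called. With the deposited log2 values the Defa31 and Gemin2 differences shrank to -3.69 and -0.85, both called. Slc12a2, Bora, Mdm2 and Gemin2 each missed the threshold when any of several single arrays was left out, at adjusted p of up to 0.0503. Without wild-type crypt 2, or without DKO crypt 3, 5 probes were called, without ApcMin adenoma 2 there were 7, and without DKO crypt 1 there were 19.

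**Figure D4:**
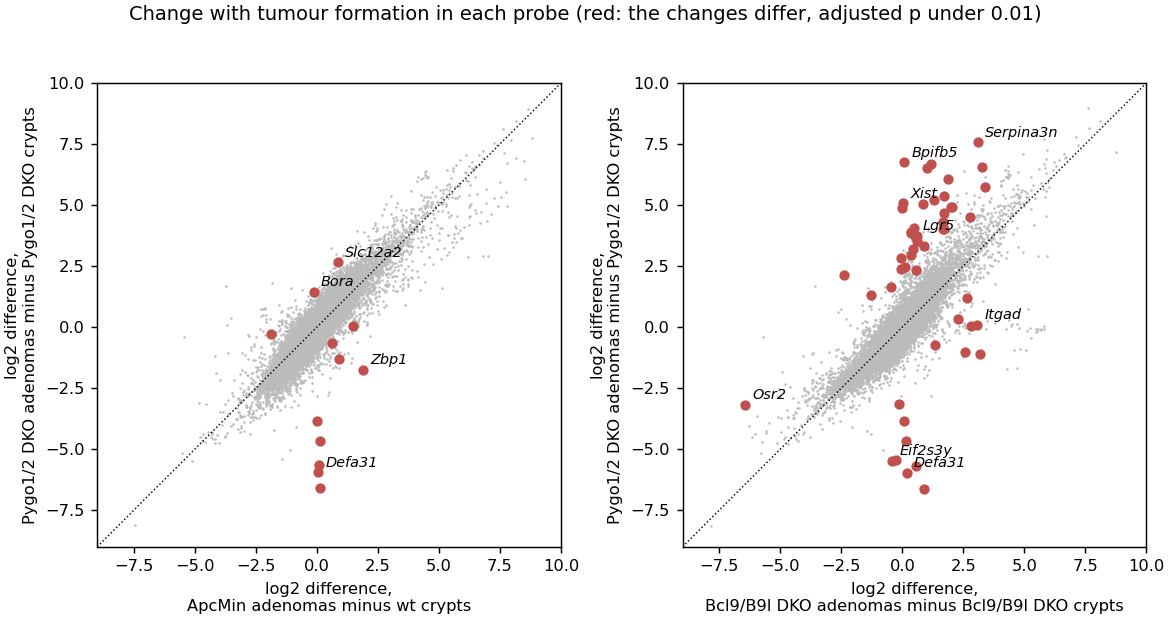
Log2 change from crypt to adenoma of each probe in the Pygo1/2 DKO (vertical axis) against the change in the ApcMin pair (left, 19445 probes) and in the Bcl9/B9l DKO pair (right, 19472 probes), with the dotted line marking equal change and red marking probes whose changes differ. Most probes follow the dotted line in both panels, and 12 probes on the left and 51 on the right are red.

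Several lists had different medians in the 2 pairs, those of the DKO taken from its own 8 arrays. The DKO and ApcMin medians were 3.22 and 2.36 for Wnt target genes and 1.97 and 0.99 for stem cell genes. For proliferation genes they were 1.79 and 0.95. The alpha-defensin median was 0.17 in the DKO and -2.10 in the ApcMin pair, with Defa26 at 0.37 and -3.52, and Ang4 rose by 1.82 in the DKO and differed by -1.84 in the ApcMin pair. Olfm4 differed by -0.40 and -2.49. T cell genes had medians of -0.96 and 0.75, and MHC class II genes of 1.87 and 3.64. Sex-linked genes had medians of -2.13 and -1.62, and the part of sex in the differences between the pairs was not tested. None of these genes was called for the difference on its brightest probe. The dimmer probe of Slc12a2, a member of the stem cell list, was called, as was Defa31, which lies outside the alpha-defensin list.

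The same comparison was made with the Bcl9/B9l DKO (crypts n = 3, adenomas n = 3), which targets the adaptors that tether Pygo to beta-catenin. Both groups carried loxP-flanked Bcl9 and B9l on both chromosomes and 1 copy of villin.Cre, so the deletion was epithelial by genotype. The adenomas carried ApcMin on 1 chromosome in addition. Age and array batch were those of the Pygo1/2 DKO arrays. Over 19472 probes the changes correlated at r = 0.88, both were called in 4920 (59.8% of the Pygo and 89.3% of the Bcl9/B9l calls), and 4918 of these had the same direction. The difference was called for 51 probes (0.262%), 36 more positive and 15 more negative in the Pygo1/2 DKO, beside 1977 at an unadjusted p under 0.05. Lgr5 was at 4.78, 4.57 and 4.93 in Bcl9/B9l DKO crypts and at 4.65, 5.47 and 5.75 in their adenomas, where it differed by 0.53, so that the changes differed by 3.22 ± 0.46 (adjusted p = 0.00285). Every Pygo1/2 DKO adenoma lay above every Bcl9/B9l DKO adenoma for this gene, but without Pygo1/2 DKO crypt 1, 2 or 3, or Bcl9/B9l DKO crypt 1 or 3, the adjusted p was 0.0111 to 0.0134, and with the deposited log2 values the difference was 1.40 (adjusted p = 0.0422). Tnfrsf19, at 4.48, 5.26 and 5.04 in the Bcl9/B9l DKO adenomas, had a change of 0.45 there and a difference of 2.75 ± 0.37 (adjusted p = 0.00204, and 0.048 with the deposited log2 values). The ETS factor Etv5 differed by 2.45 ± 0.32. The Wnt target list had a median of 3.22 in the Pygo1/2 and 1.14 in the Bcl9/B9l pair, and Prox1, Wif1 and Notum rose by 3.91, 3.58 and 5.04 in the Pygo1/2 DKO against changes of 0.84, 0.40 and 2.69, differences that were not called.

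Secreted defence proteins held several of the largest of these differences. Bpifb5 was at 4.44, 4.51 and 4.53 in the Bcl9/B9l DKO adenomas, a change of 0.08, and the difference of the changes was 6.68 ± 0.50 (adjusted p = 5.27e-06). For Bpifb1, Serpina3n, Lcn2 and Lrg1 the differences were 5.50 ± 0.56, 4.46 ± 0.53, 4.16 ± 0.56 and 3.29 ± 0.50, and for the calcium-binding Tesc 4.20 ± 0.31. The mast cell gene Cpa3 had a change of 0.48 and a difference of 3.59 ± 0.59 (adjusted p = 0.00845, and up to 0.0302 without any one of 11 of the 14 arrays), which shrank to 1.58 (adjusted p = 0.173) with the deposited log2 values, and the mast cell list a median of 2.40 against 0.48. Osr2, a zinc finger factor, fell in both, on its second probe by 3.18 in the Pygo1/2 DKO and by 6.44 in the Bcl9/B9l DKO, a difference of 3.26 ± 0.47. The differences of Lrg1 and Osr2 missed the threshold without any one of 6 and 4 of the arrays, at adjusted p of up to 0.0198 and 0.0147. That of Osr2 was 1.28 (adjusted p = 0.0985) with the deposited log2 values, and with all 26 arrays of the batch in 1 fit its adjusted p was 0.303. In the other direction the largest differences of named genes were those of Defa31, with changes of -5.69 and 0.57 (-6.26 ± 0.89, adjusted p = 0.00285, and up to 0.0115 without Pygo1/2 DKO crypt 1 or 2 or Bcl9/B9l DKO crypt 1, with both probes called), and further ones were AY761185, with -4.67 and 0.16 (-4.83 ± 0.51), the iron reductase Cybrd1, with changes of -1.11 and 3.17 (difference -4.28 ± 0.58), the integrin Itgad with 0.10 and 3.06 (-2.95 ± 0.28), and Akp3 with -5.44 and -0.27 (-5.18 ± 0.71). With all 26 arrays in 1 fit the Cybrd1 and Akp3 differences were not called (adjusted p = 0.151 and 0.101), and with the deposited log2 values they shrank to -2.45 (still called) and -3.60 (adjusted p = 0.0208). Etv5 and Lcn2 were not called with the deposited values either, at 1.04 and 2.79 (adjusted p = 0.0372 and 0.0186). The pancreatic acinar list, with 4 genes tested, had a median of 0.10 in the Pygo1/2 and 4.25 in the Bcl9/B9l pair, with 0 called for the difference. The labels do not give the intestinal segment of these samples, and the part of position or sampling in these differences was not tested. Xist, Eif2s3y and Kdm5d were also among the 51, with differences of 5.03, -5.06 and -3.03, and in the Bcl9/B9l pair Xist was detected in no array and both Y-linked genes in all. The Pygo1/2 pair thus went from a male to a female pattern, whereas the Bcl9/B9l pair had a male pattern in both groups. The other differences between the pairs cannot be told apart from those that come with sex. Leaving out single arrays gave between 25 calls (without Bcl9/B9l DKO crypt 1) and 82 (without Pygo1/2 DKO adenoma 1).

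**Figure D5:**
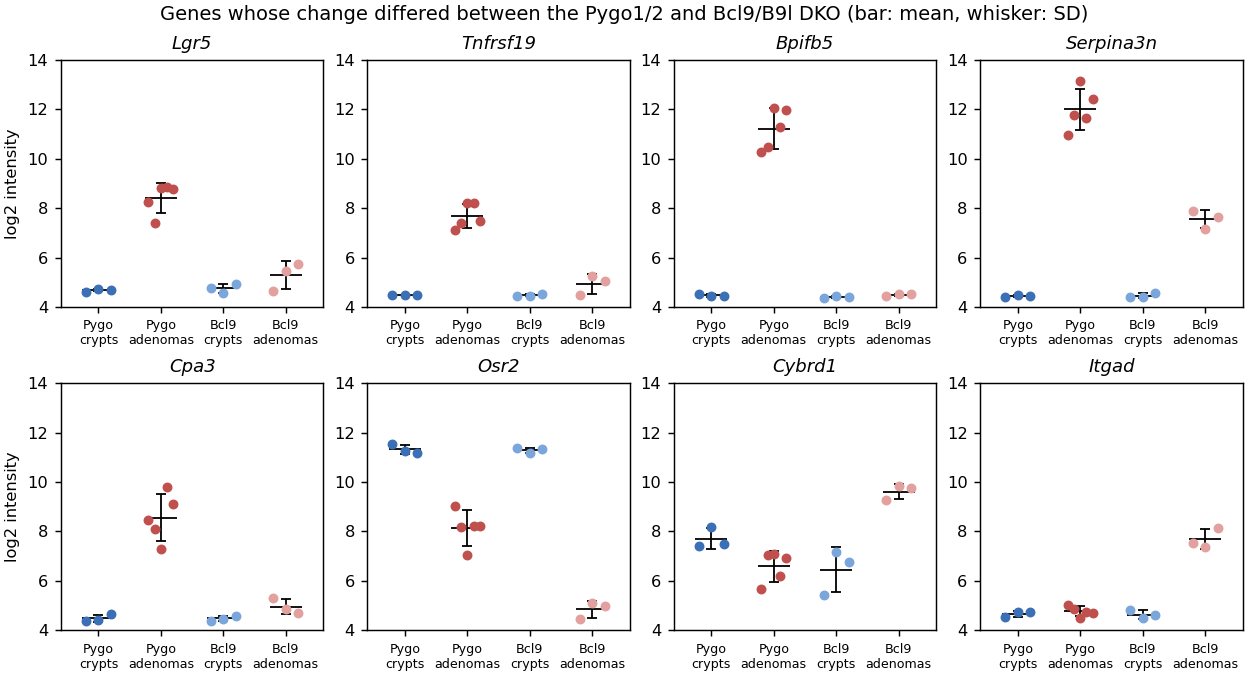
Normalized log2 intensity of 8 genes in each array of the Pygo1/2 DKO crypts and adenomas and the Bcl9/B9l DKO crypts and adenomas, with the mean as a bar and the SD as whiskers. Lgr5, Tnfrsf19, Bpifb5, Serpina3n and Cpa3 stand higher in the Pygo adenomas than in the Bcl9 adenomas, Osr2 fell further in the Bcl9 adenomas, and Cybrd1 and Itgad were raised there.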

How the data were processed

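Mouse whole-genome bead arrays (MouseWG-6 v2.0) were read by the authors, who deposited for each array the summarized probe intensity, not normalized, with a detection p-value per probe (GenomeStudio 2011.1), and a second table of log2 values (limma 3.34.9). The sources used here do not say whether a batch adjustment entered the deposited log2 values, which served as an alternative only. The scanner table held 45281 probes. Probes were named through the platform annotation for the 20824 probes of the value table, of which 17617 had a single symbol, 9 several and 3207 none, and 17585 matched a RefSeq gene. No value column of the tables lacked a sample (0 columns).

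From the deposited intensities and detection p-values the 8 arrays were background-corrected and quantile-normalized with neqc (limma 3.58.1, R 4.3.3, offset 16). Probes with a detection p-value under 0.01 in 1 or more arrays were fitted with lmFit and eBayes, and calls took a Benjamini-Hochberg adjusted p under 0.01 over all probes tested. The differences from the ApcMin and the Bcl9/B9l changes were interaction contrasts in fits of 17 and 14 arrays. The steps were tested on simulated data. Bounds set the dim group of each array at the higher of its dimmest detected probe and its own value.

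The text names the 15 largest rises and the 15 largest falls, members of 44 gene lists (636 genes, of which 481 were tested and 18 stood in more than 1 list), and genes called for a difference between genotypes. The members and lists were chosen with earlier results of these data known. Alternatives were the uncorrected intensity, the deposited log2 values, median scaling, other detection filters, a fit of all 26 batch arrays, trend and robust eBayes, the replicate block and leaving out each array. Sequences came from RefSeq tables on GRCm38.p6. Figures used matplotlib 3.10.9.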

Additional observations from a re-analysis of the deposited data

Results flagged for a closer look

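Among the 209 genes named for the Pygo1/2 DKO adenomas, 7 (3.35%) had 1 adenoma far from the other 4, and chance marks about 1 in 20 such groups (5%). In 4 of the 7 the lone array was adenoma 1. There Pygo2, the conditionally deleted gene, was at 9.56 (the other adenomas at 8.97 to 9.08), Fam151a, an enterocyte gene, at 5.96 (4.60 to 4.87), Slc5a8, a transporter of short-chain fatty acids, at 7.01 (4.61 to 5.29) and Nrp1, a semaphorin co-receptor, at 8.98 (8.61 to 8.69). The Wnt inhibitor Apcdd1 was at 6.81 in adenoma 3 (5.15 to 5.59), the goblet cell gene Clca1 at 11.39 in adenoma 4 (12.17 to 12.44), and Xist at 10.26 in adenoma 2 (9.16 to 9.39).

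Of the differences named, 26 were picked out because the change from crypt to adenoma in the Pygo1/2 DKO differed from that of another genotype in limma's interaction contrast. Against the change from wild-type crypts to ApcMin adenomas, the difference was 1.81 for Slc12a2 and 1.58 for Bora, and it was negative for Defa31 (-5.77), AY761185 (-4.78), Zbp1 (-3.65), Gemin2 (-2.21) and Mdm2 (-1.27). Against the Bcl9/B9l DKO change it was 3.22 for Lgr5, 2.75 for Tnfrsf19 and 2.45 for Etv5. Secreted defence and acute phase genes had 6.68 (Bpifb5), 5.50 (Bpifb1), 4.46 (Serpina3n), 4.16 (Lcn2) and 3.29 (Lrg1). Tesc, Cpa3 and Osr2 had 4.20, 3.59 and 3.26, and the negative differences were Defa31 (-6.26), Akp3 (-5.18), AY761185 (-4.83), Cybrd1 (-4.28) and Itgad (-2.95). Of the sex-linked genes Xist had 5.03, Eif2s3y -5.06 and Kdm5d -3.03.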

How the results depend on the processing

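Leaving out each array in turn gave between 5849 and 7737 called probes for adenomas against crypts (7870 with all), 5 to 19 for the difference from the ApcMin change (12) and 25 to 82 for the difference from the Bcl9/B9l change (51). The replicate numbers 1 to 3 do not pair the samples (correlations of same-numbered deviations -0.183 to -0.0176). With the replicate block the counts were 4826, of which 4783 were called without it, 7 and 24. With the deposited log2 values the differences had 23 and 31 calls, and with all 9 ApcMin adenomas and batch as a term the first had 19. Without a detection filter the second had 19, and with all 26 batch arrays in 1 fit it had 102. The causes were not tested. All other settings stayed within 1.5 times these counts.

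Of 44 list medians, 30 moved by more than the spread between replicates in some setting. Direction turned in 8 genes, none called either way. With the deposited values Ankrd1 was at -0.0353. Under median scaling Ctnnb1 was at -0.0931 and Defa20 at -0.0590, and with the replicate block Olfm4 was at 0.13. Without single arrays Ankrd1 ran from -0.11 to 0.18, Cdh1 from -0.19 to 0.0928, Ctnnb1 from -0.0297 to 0.24, Dclk1 from -0.15 to 0.65, Defa20 from -0.0451 to 0.30, Neurog3 from -0.17 to 0.56 and Pcna from -0.13 to 0.58.

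Named genes lost their call most often without a detection filter (26 genes, adjusted p 0.0101 to 0.0606), with the replicate block (20 genes) and without crypt 3 (20 genes, up to 0.0537). Without some single array 23 genes missed the threshold, beside those given above Bcl9, Ccl5, Clca1, Cox7a2, Erbb2, Gemin2, Igf2, Ihh, Mdm2, Myc, Notch1, Noxo1, Nr1h4, Tap1, Tff3 and Zbp1, at adjusted p of up to 0.0524. The number of arrays, 3 and 5, limits the precision. Where no array of the dimmer group detected a probe, any fold given is a lower bound. Probes detected in part of that group carry full differences that lie near background.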

Other observations

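Guidance molecules and their receptors, which steer growing axons and vessels, held single large rises in the Pygo1/2 DKO adenomas, while the list of 16 as a whole was called about as often as all named genes (4 higher, 3 lower in limma's test). The receptor Plxnd1 was at 4.69, 4.99 and 4.62 in the crypts, detected in none, and at 7.25, 7.61, 7.64, 7.09 and 7.63 in the adenomas, a rise of 2.68 ± 0.19 (adjusted p = 9.68e-07, at least 2.65-fold). Its co-receptor Nrp1 rose by 2.93 ± 0.17, from 5.65 to 6.00 in the crypts to 8.61 to 8.98. The chemokine Cxcl14 rose by 4.06 ± 0.27, at least 6.76-fold, with every adenoma at 8.13 or more and every crypt at 5.00 or less.

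Of 4 enteric neuron and glia genes 3 rose, beside 24.9% of all named genes higher. Among them Vip, the vasoactive intestinal peptide, went from 4.57, 4.85 and 4.49 in the crypts to 8.36, 9.61, 9.14, 9.43 and 7.93 in the adenomas (4.26 ± 0.35, adjusted p = 2.42e-06, at least 7.24-fold). Of 5 B and plasma cell genes 3 rose, beside the same share of all named genes. Among them were the plasma cell chaperone Mzb1, by 3.06 ± 0.26, and the B cell coactivator Pou2af1, by 1.28 ± 0.23, the latter detected in 3 of the 5 adenomas. The immediate early genes respond within minutes to stress or growth factors. Of 10 tested, 3 were higher and 3 lower, shares near the 24.9% and 19.5% of all named genes. Atf3 fell by 2.57 ± 0.36, Fosb by 1.57 ± 0.27 and Zfp36 by 1.23 ± 0.26 (adjusted p 0.00201, and 0.0110 without crypt 3), whereas Ier3 rose by 2.15 ± 0.28 and Egr1 by 1.35 ± 0.35 (adjusted p = 0.00595, and up to 0.0315 without any one of 6 arrays). Adenoma 5 was the highest of the adenomas for Atf3, Fosb and Zfp36, and still lay below every crypt for each. The tight junction protein occludin (Ocln) fell by 1.32 ± 0.28 (adjusted p = 0.00183, and 0.0121 without crypt 2).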
